A study of Mus musculus with 6 samples.

Results

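Imprinted genes were followed in haematopoietic stem cells sorted by the chemokine receptor CCR2. The members were a list of 41 mouse genes known to be imprinted, found by symbol in the platform annotation. Of these, 36 had a probe set assigned to that gene alone and were measured, among 22180 genes in all. They were divided by the parental allele that is known to be expressed, which gave 16 maternally and 20 paternally expressed genes. H19, Rtl1, Mirg and Snrpn, whose probe sets are assigned to several genes, and Zrsr1, with no probe set under that symbol, were not analysed here. Where a gene had several probe sets, the one with the highest mean over the arrays stood for it.

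The study compared CCR2-positive with CCR2-negative stem cells of C57BL/6J mice, an inbred strain, on whole-transcript arrays. Each array carried a pool of sorted cells from the marrow of 20 mice, with 3 CCR2-positive and 3 CCR2-negative pools, and 5 ng of total RNA per pool was amplified before labelling. No treatment or genetic change was given for either group. The sources used here state neither the age and sex of the mice, nor the further markers by which stem cells were sorted, nor if pools of the 2 groups shared mice. All values below are log2 values as the authors deposited them, made with RMA, a method that removes background, brings the arrays to a common scale and joins probes into probe sets. Differences are CCR2-positive minus CCR2-negative means, shown with limma's standard error (SE), and p-values were adjusted over all genes by the Benjamini-Hochberg method with a threshold of 0.05.

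Imprinted genes carry DNA methylation marks set in the egg or the sperm, so that only the maternal or the paternal copy is transcribed in the offspring. They lie in domains in which a methylated control region, often together with a long noncoding RNA, silences neighbouring genes on 1 chromosome. Many of them regulate growth, and in the blood system a group of imprinted growth regulators, among them Igf2, Dlk1, Meg3, Ndn, Grb10 and Peg3, is known for higher expression in long-term stem cells than in their progeny. The arrays add up the RNA of both alleles and cannot tell the parental copies apart. The maternal and paternal classes are therefore textbook assignments, and none was measured. Ube3a, Grb10, Gnas, Gatm, Inpp5f, Ddc and Nap1l4 were marked as genes whose imprint is known to depend on the tissue or the transcript. Whether the other members are imprinted in blood cells was not examined.

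The array data bear on the sort as follows. Ccr2 itself had log2 values of 6.81, 7.10 and 6.18 in the CCR2-positive pools, against 5.64, 6.26 and 5.83 in the CCR2-negative pools, so CCR2-positive replicate 3 lay below CCR2-negative replicate 2. Its difference was 0.79 ± 0.24 (SE), with a limma adjusted p of 0.274. Over all genes, 0 of 22180 (0%) passed the adjusted threshold, 2716 (12.2%) had an unadjusted p under 0.05, and the smallest adjusted p was 0.177. Without CCR2-positive replicate 1, 2 genes passed, neither of them a member. Medians of several lists of cell type markers differed between the groups. Of the stem cell identity genes 15 of 16 lay lower in the CCR2-positive pools (median difference -0.48), all 14 erythroid genes lay higher (median 0.47), and so did 14 of 15 monocyte and macrophage genes (median 0.35) and 14 of 15 neutrophil genes (median 0.22). Over all genes 56.0% lay higher and 44% lower. The neutrophil list means overlapped, at 5.92, 6.46 and 5.66 in the CCR2-positive and 5.42, 5.87 and 5.71 in the CCR2-negative pools. Pools separated fully for 3 of 15 neutrophil genes (20%) and for 18.6% of all genes. The part of these cell types in the results below was not tested, and in pooled cells fewer cells of a type and less RNA per cell cannot be told apart. Median differences of the other marker lists were 0.01 for 15 genes of marrow stroma and endothelium, 0.09 for 13 lymphoid genes, -0.06 for 9 megakaryocyte and platelet genes, 0.02 for 12 genes of handling stress, 0.03 for 4 sex-linked genes, and 0.14 for 10 basophil and mast cell genes. Single genes of these lists differed far more, between -0.92 and 0.36 in stroma and endothelium, -0.66 and 0.80 in megakaryocytes and platelets, and -0.34 and 1.72 in basophils and mast cells.

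**Figure D1:**
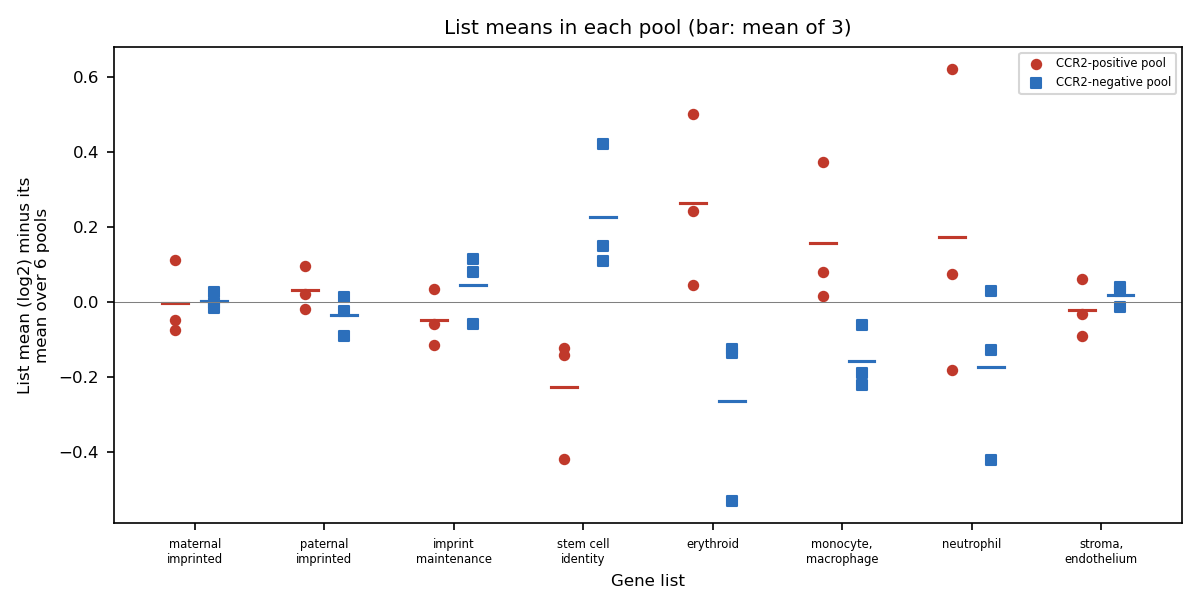
Mean log2 value of each gene list in each pool, minus the list's mean over the 6 pools (vertical axis). Circles are CCR2-positive and squares CCR2-negative pools, and bars are means of 3 pools. The imprinted lists differ by -0.01 (maternal) and 0.07 (paternal), the stem cell list by -0.45 and the erythroid list by 0.53.

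No imprinted gene of the list passed the adjusted threshold (0 of 36, as for 0% of all genes), nor did any reach an adjusted p of 0.2, which 1.43% of all genes did. The smallest adjusted p among members was 0.306, for Sgce. At an unadjusted p under 0.05 there were 3 members (8.33%), Sgce, Slc22a18 and Dio3, where 12.2% of all genes had such a p. Of these, 1 lay higher (5.63% of all genes) and 2 lower (6.61% of all genes). The median absolute difference was 0.14 over members (0.10 maternal, 0.17 paternal) and 0.13 over all genes. The largest differences were -0.44 and 0.33, and 0 of 36 members differed by more than 0.5 in either direction, against 3.73% of all genes. This holds for the probe sets used, and a second probe set of Nnat had -0.54 ± 0.25. For the probe sets used, the 95% interval of all 36 members lay within 1 on the log2 scale. That is within a 2-fold change of array signal either way, and for 25 members the interval lay within 0.5. These intervals are per gene and are not adjusted for the number of genes. The median SE of a member was 0.12. The SD between pools had a median of 0.139 over members among CCR2-positive and 0.126 among CCR2-negative pools, and reached 0.39 for Gatm in the CCR2-positive pools. With 1 pool left out, the differences of 29 of 36 members moved by over 1.5 times in at least 1 of 6 fits. The other 7 were Slc22a18, Zim1, Sgce, Dio3, Usp29, Plagl1 and Ddc.

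Maternally expressed members showed no common direction. Of 16, 9 lay higher and 7 lower in the CCR2-positive pools, with a median difference of 0.02, beside a median of 0.03 over all genes, of which 56.0% lay higher and 44% lower. The mean of the 16 genes was 6.34, 6.50 and 6.32 in the CCR2-positive pools and 6.37, 6.39 and 6.42 in the CCR2-negative pools. CCR2-positive replicate 2 had the highest value and its 2 fellow pools the lowest, so the groups overlapped. Without CCR2-positive replicate 2 the median was -0.01.

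Paternally expressed members lay higher in the CCR2-positive pools in 14 of 20 cases, with a median difference of 0.11. Their mean was 5.75, 5.71 and 5.82 in the CCR2-positive pools, against 5.70, 5.64 and 5.74 in the CCR2-negative pools. The means overlapped, since CCR2-positive replicate 2 lay below CCR2-negative replicate 3. Leaving out CCR2-positive replicate 3 gave a median of 0.05 and 12 of 20 genes higher. CCR2-positive and CCR2-negative pools were fully separate for 6 of these genes (5 higher, 1 lower) and for 2 maternally expressed genes (1 higher, 1 lower), 22.2% of the 36 members in all. Such separation was found for 18.6% of all genes, with 10.8% higher and 7.88% lower.

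Genes were then divided by level. Of the 12 paternally expressed genes with a mean level under that of the median gene, 10 (83.3%) lay higher, with a median of 0.17, and of the 8 above it 4 did, with a median of -0.02. All 5 paternally expressed genes whose CCR2-positive pools lay entirely above were among those 12 (41.7%). They were Dio3, Usp29, Mest, Ddc and Plagl1. Dio3 and Usp29 lay at percentiles 15 and 7.47 of level, and a second probe set of Plagl1 had a difference of -0.29. Over all genes, 68.1% of those under the median level lay higher in the CCR2-positive pools, with a median of 0.07, and 43.9% of those above it, with a median of -0.03. Complete separation upward was found for 14.2% of all dim genes and 7.3% of all bright ones. The dim paternal genes thus had larger shares than dim genes in general, a difference that was not tested. Among dim maternally expressed genes 5 of 7 lay higher, and among bright ones 4 of 9. The level of a probe set depends on its probes as well as on its RNA, so it is used here to group genes only. Set against all genes of like level, in 20 bins of 5 percentiles each, 14 paternally expressed members lay above their bin's median and 6 below, as many as lay above and below 0, and 8 maternally expressed members lay above and 8 below. Only 1 member, Dio3 (0.33), fell outside the central 90% of its bin, where by construction 10% of all genes lie. Sgce lay at the lower edge, at -0.4399 against a 5th percentile of -0.4402 in its bin.

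**Figure D2:**
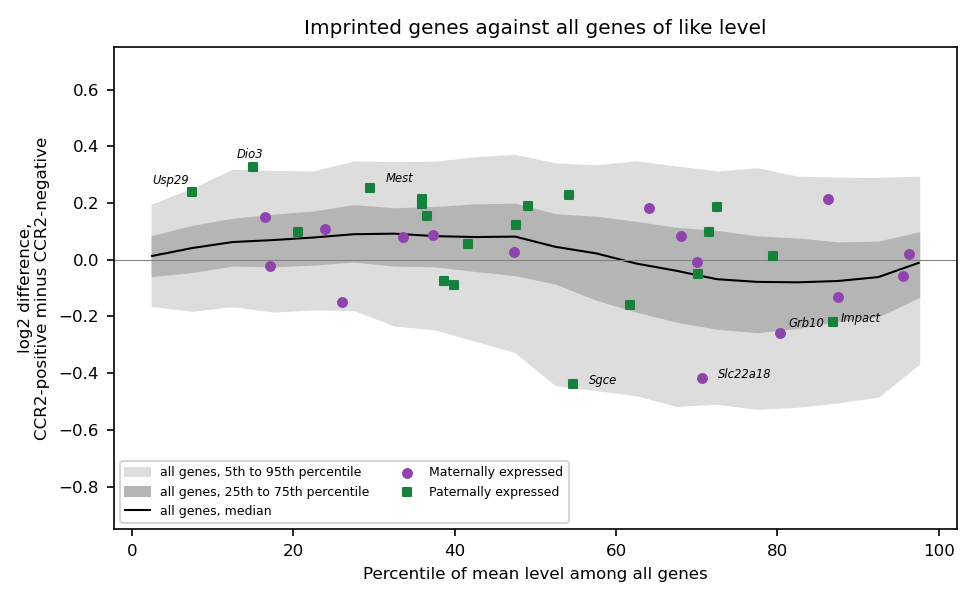
Log2 difference of each imprinted gene (vertical axis) against the percentile of its mean level among all genes (horizontal axis), over bands for all genes in 20 bins of level. The black median line lies above 0 for dimmer genes and below 0 for brighter ones. Dio3 alone lies outside the band from the 5th to the 95th percentile, and Sgce lies close to its lower edge.

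**Figure D3:**
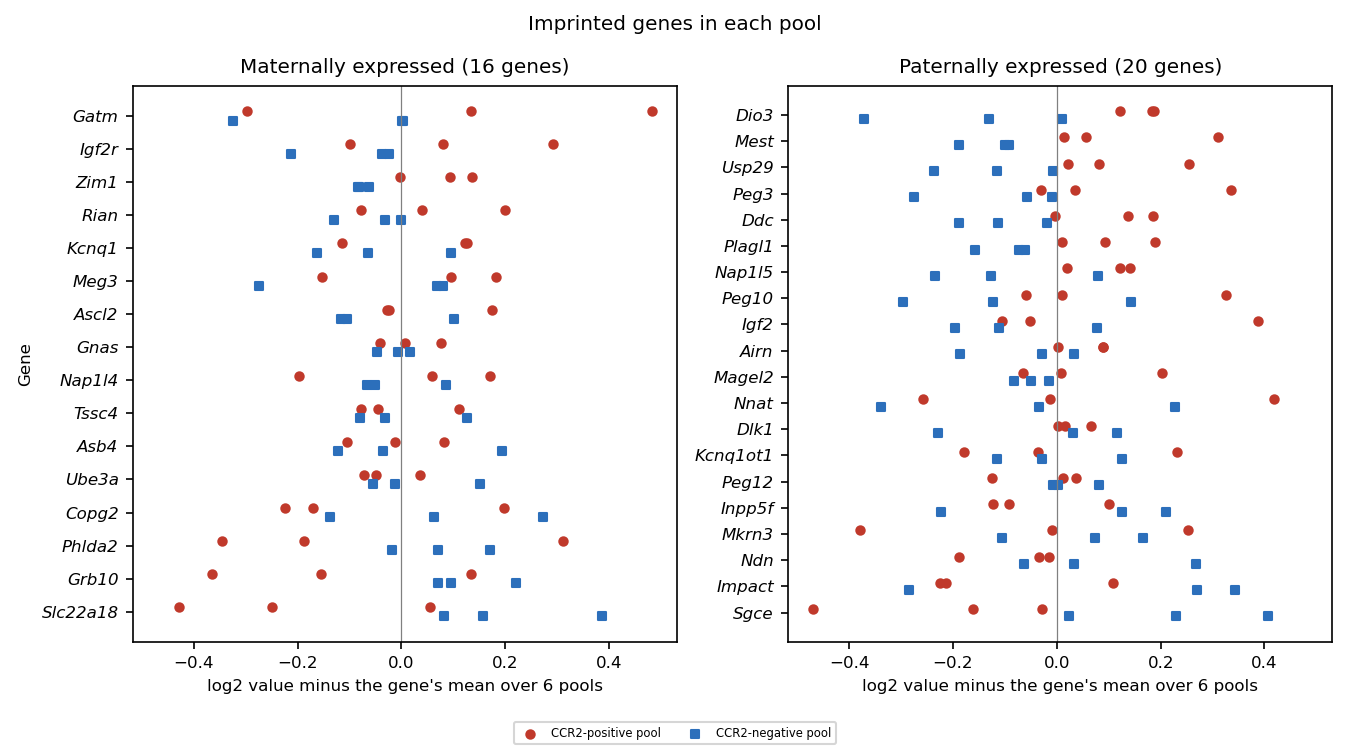
Log2 value of each imprinted gene in each pool, minus the gene's mean over 6 pools, for 16 maternally and 20 paternally expressed genes ordered by difference. Circles are CCR2-positive and squares CCR2-negative pools. The groups separate fully for Slc22a18, Zim1, Sgce, Dio3, Mest, Usp29, Ddc and Plagl1.

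Promoters of 4 genes described below are shown for their differing content of CpG, the dinucleotide that carries imprinting methylation. Slc22a18, Dio3 and Mest separated the groups, and Peg3 did not. The table used has no entry for Sgce. The sequences come from RefSeq (build GRCm38.p6) and run from 250 bases before to 50 bases after an annotated start, 5′ to 3′ along the gene, with each CpG in capitals. Slc22a18 (chr7:143473539-143473838, plus strand) had 2 CpG, Dio3 (chr12:110278980-110279279, plus strand) had 25, Mest (chr6:30737800-30738099, plus strand) had 17 and Peg3 (chr7:6730370-6730669, minus strand) had 13.
Slc22a18: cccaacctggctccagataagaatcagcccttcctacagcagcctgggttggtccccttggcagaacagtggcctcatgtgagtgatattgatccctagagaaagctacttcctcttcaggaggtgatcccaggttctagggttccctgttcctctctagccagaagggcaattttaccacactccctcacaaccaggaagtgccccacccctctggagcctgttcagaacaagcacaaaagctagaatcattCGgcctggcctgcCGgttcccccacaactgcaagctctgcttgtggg
Dio3: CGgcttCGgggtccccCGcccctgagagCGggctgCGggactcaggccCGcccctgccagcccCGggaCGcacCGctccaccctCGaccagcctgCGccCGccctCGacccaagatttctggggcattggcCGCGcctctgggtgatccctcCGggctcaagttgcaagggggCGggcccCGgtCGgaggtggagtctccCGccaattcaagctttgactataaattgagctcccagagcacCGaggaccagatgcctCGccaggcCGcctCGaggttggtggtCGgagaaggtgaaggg
Mest: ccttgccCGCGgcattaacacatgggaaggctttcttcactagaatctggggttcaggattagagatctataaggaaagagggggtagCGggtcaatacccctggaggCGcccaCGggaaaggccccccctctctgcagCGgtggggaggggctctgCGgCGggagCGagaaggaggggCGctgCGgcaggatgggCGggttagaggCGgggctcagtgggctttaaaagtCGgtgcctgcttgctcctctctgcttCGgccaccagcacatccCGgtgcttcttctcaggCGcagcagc
Peg3: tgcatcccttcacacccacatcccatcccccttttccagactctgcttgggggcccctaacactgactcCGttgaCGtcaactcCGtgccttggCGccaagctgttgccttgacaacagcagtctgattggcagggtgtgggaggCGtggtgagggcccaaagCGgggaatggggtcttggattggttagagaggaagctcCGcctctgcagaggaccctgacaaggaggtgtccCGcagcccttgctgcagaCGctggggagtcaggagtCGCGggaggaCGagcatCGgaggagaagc
The median over 32851 mouse windows was 7 CpG, and over the 43 windows of the 31 members that had any it was 15. The hexamer TGCCGC, which ZFP57, the zinc finger protein that guards imprints, binds when methylated, was searched on both strands (TGCCGC or GCGGCA). It occurred in 23.3% of the members' windows and in 11.6% of all windows, and 2 copies lie in the printed Mest window. The hexamer itself holds a CpG, and its rates at like CpG content were not compared. Overlapping windows of a gene were each counted. Mest has 3 windows in the table, and the printed one was picked for its number of copies of the hexamer. The window farthest upstream has 8 CpG and no copy. By allele, 5 of 17 paternally and 4 of 14 maternally expressed genes with a window held the hexamer in at least 1. The windows of Peg3 and Usp29, which start back to back, share 263 bases.

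The imprinted members with the lowest values relative to CCR2-negative cells were Sgce and Slc22a18, of opposite parental origin and on different chromosomes. Sgce, on chromosome 6, encodes epsilon-sarcoglycan, a membrane protein whose human gene is mutated in myoclonus dystonia. Its log2 values were 5.98, 5.54 and 5.85 in the CCR2-positive pools, against 6.42, 6.24 and 6.04 in the CCR2-negative pools. The groups did not overlap, though CCR2-positive replicate 1 and CCR2-negative replicate 3 lay close together. The difference was -0.44 ± 0.15 (SE), 1.36-fold lower, with a 95% interval of -0.78 to -0.10. Peg10, a retrotransposon-derived gene that starts beside Sgce and shares its control region, had a difference of 0.18 ± 0.15. The tests did not compare these neighbours, and the intervals overlap (-0.16 to 0.53 for Peg10). Asb4, a maternally expressed ubiquitin ligase adaptor of the same domain, had -0.02 ± 0.12.

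The Kcnq1ot1 domain of distal chromosome 7 had the largest number of measured members, 7, of which 4 lay higher and 3 lower. Slc22a18, a maternally expressed gene for a transporter-like membrane protein, had log2 values of 6.61, 6.91 and 6.43 in the CCR2-positive pools, against 7.24, 7.02 and 6.94 in the CCR2-negative pools. The lowest CCR2-negative pool lay just above the highest CCR2-positive pool. Its difference was -0.42 ± 0.15, 1.33-fold lower, with an unadjusted p of 0.0212 and a limma adjusted p of 0.322. Kcnq1ot1, the paternally expressed noncoding RNA that silences this domain, had values of 7.21, 7.62 and 7.35 in the CCR2-positive and 7.36, 7.27 and 7.51 in the CCR2-negative pools, a difference of 0.01 ± 0.13. Its sign turned with median centring and with array weights. The other maternally expressed genes of the domain had differences between -0.15 and 0.09. These were Phlda2, a restrainer of placental growth (-0.15 ± 0.17, and -0.34 without CCR2-positive replicate 2), Tssc4, a splicing factor (-0.01 ± 0.11), Nap1l4, a histone chaperone (0.02 ± 0.12), Ascl2, a transcription factor of the placenta (0.08 ± 0.11), and Kcnq1, a potassium channel (0.09 ± 0.12). The signs of Tssc4 and Nap1l4 turned with the scaling, to 0.053 for Tssc4 after a second quantile normalization and to -0.0026 for Nap1l4 with median centring. Cdkn1c, the cell cycle inhibitor p57 of the same domain and a gene of stem cell quiescence, was not in the list. It had values of 5.73, 5.83 and 6.06 in the CCR2-positive pools and 6.05, 5.82 and 5.98 in the CCR2-negative pools, a difference of -0.07 ± 0.12 with an adjusted p of 0.839. That difference was -0.001 without CCR2-positive replicate 1 and -0.17 without CCR2-positive replicate 3. Kcnq1ot1 lies within Kcnq1 (83437 shared bases), so how far a probe set separates the pair depends on its strand, which is not given in the sources used here. Igf2r and Airn also overlap, by 28396 bases, and so do Mest and Copg2, by 913.

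In the Dlk1-Dio3 domain of chromosome 12 all 4 measured members lay higher, with a median of 0.10. However, the sign of Dlk1 turned with cyclic loess (-0.0093). Of the 4, 3 lay under the median level, where 68.1% of all genes lay higher. Dio3, the enzyme that inactivates thyroid hormone, had log2 values of 4.34, 4.34 and 4.27 in the CCR2-positive pools, against 4.02, 3.78 and 4.16 in the CCR2-negative pools. The groups did not overlap, and the spread lay almost wholly in the CCR2-negative pools (SD 0.04 in CCR2-positive, 0.19 in CCR2-negative pools, n = 3 each). The difference was 0.33 ± 0.12, 1.26-fold higher, with an unadjusted p of 0.0246 and a limma adjusted p of 0.335. Its level was at percentile 15 of all genes, and without detection calls it is unknown whether it lies above background.

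Dlk1, a membrane protein related to Notch ligands, and Meg3, a noncoding RNA, are the main stem cell genes of this domain. Dlk1 had values of 5.42, 5.44 and 5.49 in the CCR2-positive pools and 5.19, 5.54 and 5.45 in the CCR2-negative pools. Its CCR2-positive values lay inside the CCR2-negative range, and the difference was 0.06 ± 0.12, with a 95% interval of -0.21 to 0.32. The level of Dlk1 was at percentile 41.7 of all genes, and whether it lies above background is unknown too. Meg3 had 6.82, 6.57 and 6.90 in the CCR2-positive pools and 6.79, 6.45 and 6.80 in the CCR2-negative pools, with replicate 2 the lowest of each group. Its difference was 0.08 ± 0.14, with an interval of -0.24 to 0.40, and without CCR2-negative replicate 2 it was -0.03. Rian, the noncoding RNA that hosts small nucleolar RNAs, had 0.11 ± 0.11.

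The domain also holds a large cluster of miRNA genes, processed from the maternal transcripts. The arrays measure RNA from the hairpin's region after whole-transcript amplification, not the mature miRNA. Of 68 listed miRNA genes of imprinted loci, 49 had a probe set, 31 higher and 18 lower, with a median of 0.06 (0.02 without CCR2-positive replicate 1). At an unadjusted p under 0.05 there were 6 (12.2%, the same share as the 12.2% of all genes), and 0 passed the adjusted threshold. Under the median level, where 39 of the 49 lay, 68.1% of all genes were higher, with a median of 0.07. The share of these 39 miRNA genes that lay higher was smaller. Each miRNA gene above the median level lay higher, with a median of 0.20. Of all genes above that level 43.9% lay higher, with a median of -0.03. These differences from all genes were not tested. Within the Dlk1-Dio3 domain 26 of 42 miRNA genes lay higher, with a median of 0.04. The 4 with the smallest p all came from this domain, and their mature sequences are shown, from RefSeq, with the seed (bases 2 to 8) in capitals.
mmu-miR-679-5p: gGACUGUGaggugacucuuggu
mmu-miR-679-3p: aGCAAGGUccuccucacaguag
mmu-miR-1188-5p: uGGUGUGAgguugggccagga
mmu-miR-1188-3p: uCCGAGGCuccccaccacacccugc
mmu-miR-3070-5p: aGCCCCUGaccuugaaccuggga
mmu-miR-3070-2-3p: uGGUGCUAuggucagggguaga
mmu-miR-544-5p: uCUUGUUAaaaagcagagucu
mmu-miR-544-3p: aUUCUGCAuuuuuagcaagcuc
Mir679 had log2 values of 6.00, 5.95 and 6.23 in the CCR2-positive pools, against 5.73, 5.36 and 5.72 in the CCR2-negative pools, a difference of 0.46 ± 0.14 (limma adjusted p = 0.272). Mir1188 had 5.85, 5.55 and 6.26 in the CCR2-positive pools, against 5.43, 5.24 and 5.52 in the CCR2-negative pools (0.49 ± 0.18, adjusted p = 0.334). In the other direction, Mir3070b had a difference of -0.38 ± 0.13 and Mir544 of -0.32 ± 0.12, with adjusted p-values of 0.301 and 0.338. The groups separated for each of these 4, which were picked by their small p. Mir3070a, which shares the 5p sequence and the 3p seed of Mir3070b, had -0.07 ± 0.14, and the difference between the pair was not tested. No seed was shared among Mir679, Mir1188, Mir3070b and Mir544.

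**Figure D4:**
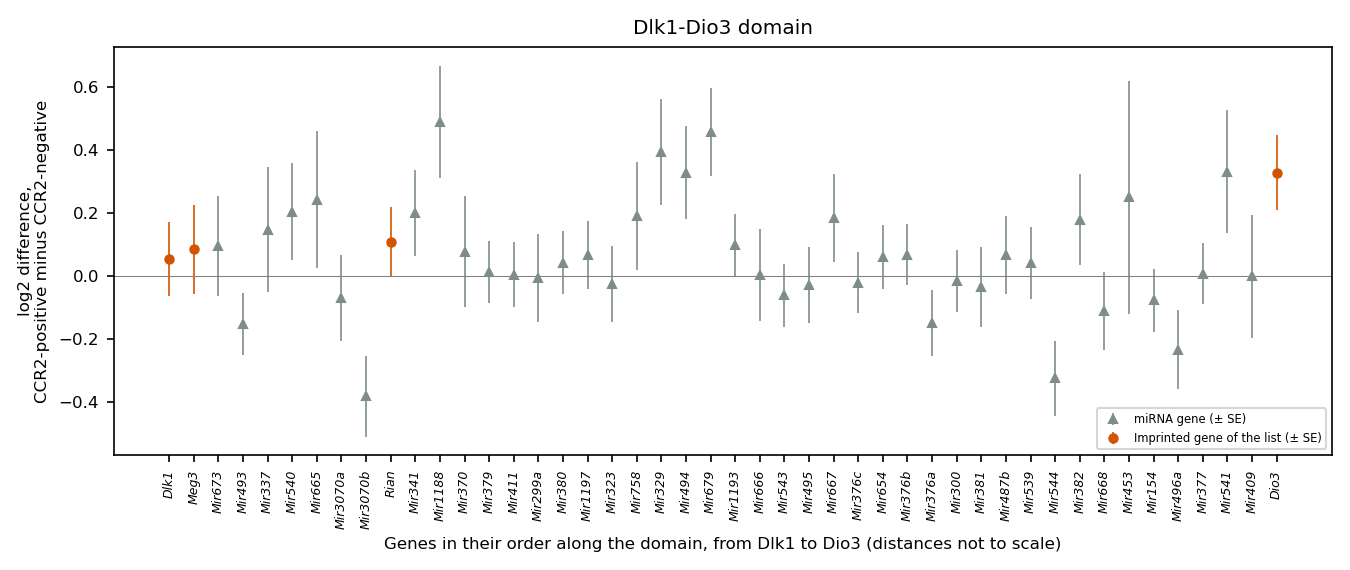
Log2 difference, CCR2-positive minus CCR2-negative (vertical axis, bars ± SE), of the genes of the Dlk1-Dio3 domain in chromosomal order. Circles are the imprinted genes of the list and triangles the miRNA genes. Dlk1, Meg3, Rian and Dio3 lie at 0.06, 0.08, 0.11 and 0.33, and the miRNA genes scatter on both sides of 0.

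Genes of insulin-like growth factor signalling lie at the centre of imprinted growth control. Igf2, the paternally expressed growth factor, had log2 values of 5.15, 5.09 and 5.59 in the CCR2-positive pools, against 5.00, 5.28 and 5.09 in the CCR2-negative pools. CCR2-positive replicate 3 was the highest and the other pools were intermixed, and the difference was 0.15 ± 0.15, with an interval of -0.19 to 0.50. Without CCR2-positive replicate 3 it was -0.001. The level of Igf2 was at percentile 36.5 of all genes, and it is unknown whether it lies above background. Igf2r, the maternally expressed receptor that takes IGF2 to the lysosome, had 6.57, 6.79 and 6.40 in the CCR2-positive and 6.46, 6.28 and 6.47 in the CCR2-negative pools (0.18 ± 0.13). Airn, the paternal noncoding RNA that silences Igf2r, had 0.12 ± 0.10, so both partners had differences of the same sign. Grb10, an adaptor that dampens insulin and IGF receptor signalling, had 7.09, 7.58 and 7.29 in the CCR2-positive pools, against 7.67, 7.55 and 7.52 in the CCR2-negative pools. CCR2-positive replicate 2 lay within the CCR2-negative range, and the difference was -0.26 ± 0.14 (limma adjusted p = 0.490). Ddc, its paternally expressed neighbour and an enzyme of monoamine synthesis, had 5.16, 5.30 and 5.35 in the CCR2-positive pools, against 5.05, 4.98 and 5.15 in the CCR2-negative pools (0.21 ± 0.11). The pools of Ddc did not overlap, by the narrow gap between CCR2-positive replicate 1 and CCR2-negative replicate 3.

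Of 20 measured genes of the IGF pathway that are not imprinted members, 9 lay higher and 11 lower, with a median of -0.03 (0.04 without CCR2-negative replicate 3, and -0.16 over those above the median level) and 0 past the adjusted threshold. At an unadjusted p under 0.05 there were 6 (30%, beside 12.2% of all genes), 2 higher and 4 lower. Igfbp4, an IGF-binding protein, had a difference of -0.37 ± 0.12, Insr, the insulin receptor, of -0.39 ± 0.16, and Foxo3, a transcription factor held back by this pathway, of -0.28 ± 0.11. Igfbp3, another binding protein, had 0.27 ± 0.10. The adjusted p-values of these 4 genes lay between 0.277 and 0.367. Mir483, which lies within Igf2, had 8.38, 8.25 and 8.60 in the CCR2-positive pools, against 8.06, 8.25 and 8.04 in the CCR2-negative pools, a difference of 0.29 ± 0.12 (limma adjusted p = 0.394).

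In the Peg3 domain of proximal chromosome 7 all 3 members lay higher. Peg3, a zinc finger protein, had log2 values of 5.96, 6.03 and 6.33 in the CCR2-positive pools, against 5.98, 5.72 and 5.94 in the CCR2-negative pools. The groups overlapped between CCR2-positive replicate 1 and CCR2-negative replicate 1, and the difference was 0.23 ± 0.13 (limma adjusted p = 0.524). Usp29, a deubiquitinase gene that starts back to back with Peg3, had 3.65, 3.71 and 3.88 in the CCR2-positive pools, against 3.39, 3.51 and 3.62 in the CCR2-negative pools (0.24 ± 0.11, adjusted p = 0.436). Zim1, the maternally expressed zinc finger gene of the domain, had 4.37, 4.23 and 4.33 in the CCR2-positive pools, against 4.15, 4.15 and 4.17 in the CCR2-negative pools (0.15 ± 0.10, adjusted p = 0.556). Both Usp29 and Zim1 separated the groups without overlap, but at levels of percentile 7.47 and 16.5 of all genes. Of all genes under the median level, 68.1% lay higher and 14.2% separated upward. The sign was the same for the paternally and the maternally expressed genes of this domain, which was not tested against genes of like level.

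Mest, a paternally expressed gene for a hydrolase-like protein of mesodermal growth, had log2 values of 4.90, 5.19 and 4.94 in the CCR2-positive pools, against 4.70, 4.79 and 4.78 in the CCR2-negative pools. All CCR2-positive pools lay above, and the difference was 0.25 ± 0.11, 1.19-fold higher, with an unadjusted p of 0.0545 and a limma adjusted p of 0.415. Copg2, a coatomer subunit encoded by the overlapping maternally expressed neighbour, had -0.13 ± 0.15. Mir335, within Mest, had -0.002 ± 0.233. Plagl1, a zinc finger transcription factor of cell cycle arrest, had 5.36, 5.26 and 5.18 in the CCR2-positive pools, against 5.01, 5.11 and 5.09 in the CCR2-negative pools, a difference of 0.20 ± 0.10 without overlap. Its second, dimmer probe set had a difference of -0.29 ± 0.18, so the probe sets disagree in sign. Nnat, a proteolipid of the endoplasmic reticulum, had the same split: 0.10 ± 0.20 for the probe set used and -0.54 ± 0.25 for the other. For Ube3a the pair had -0.06 and -0.19.

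**Figure D5:**
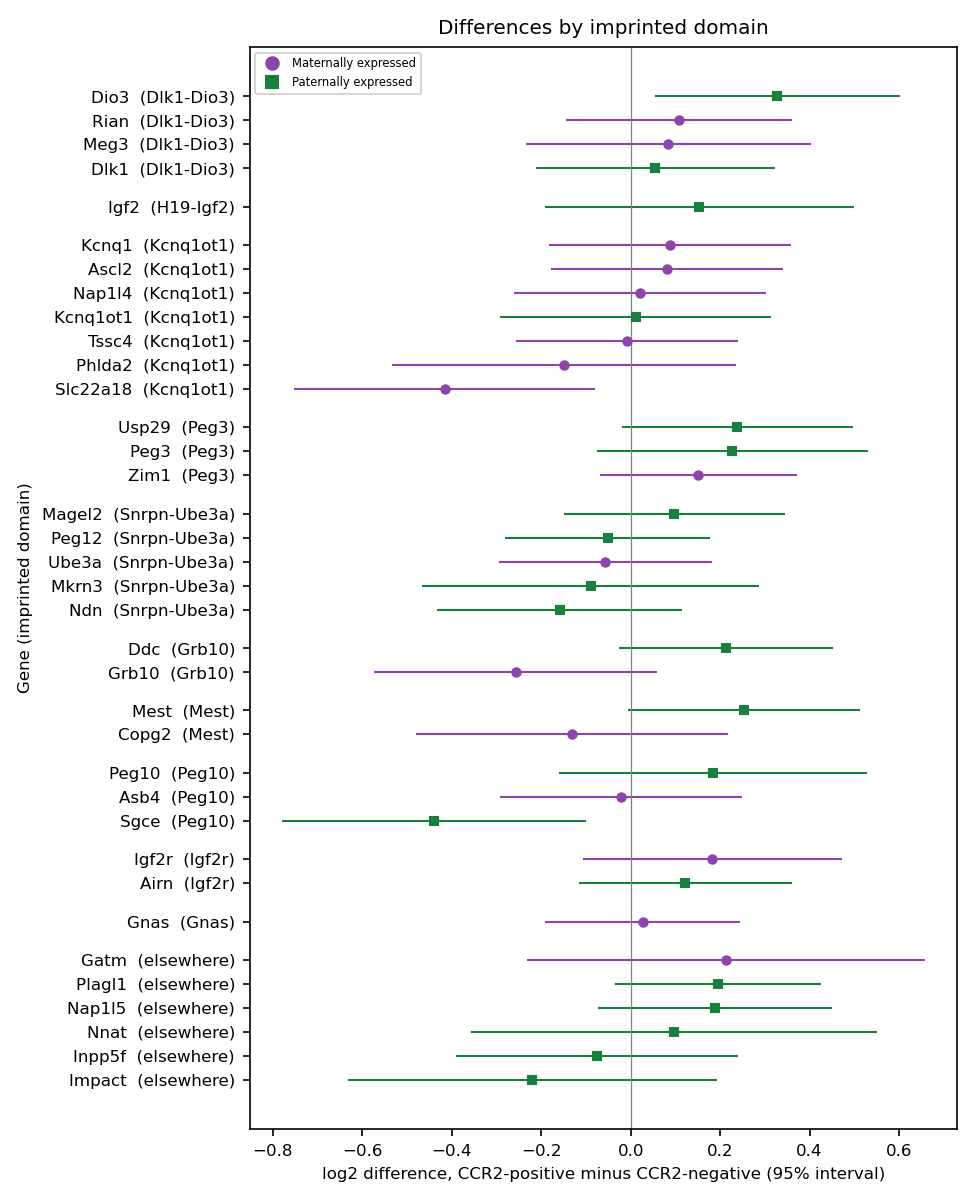
Log2 difference of each measured imprinted gene with its 95% interval (horizontal axis), grouped by imprinted domain. Circles are maternally and squares paternally expressed genes. The interval excludes 0 for Dio3, Slc22a18 and Sgce, and no interval reaches 1 in either direction.

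The Snrpn-Ube3a domain of chromosome 7, known from the Prader-Willi and Angelman syndromes of its human counterpart, had 5 measured members, 1 higher and 4 lower. Ndn, the paternally expressed growth suppressor that is known to restrain stem cell proliferation, had log2 values of 6.34, 6.18 and 6.36 in the CCR2-positive pools, against 6.64, 6.31 and 6.41 in the CCR2-negative pools. CCR2-positive replicates 1 and 3 lay above CCR2-negative replicate 2, and the difference was -0.16 ± 0.12, with an interval of -0.43 to 0.11. Ube3a, a ubiquitin ligase, had -0.06 ± 0.10, Peg12, a regulator of GSK3, had -0.05 ± 0.10, Mkrn3, a ubiquitin ligase that restrains puberty, had -0.09 ± 0.17, and Magel2, a partner of ubiquitin ligases in protein recycling, had 0.10 ± 0.11. The sign of Peg12 turned after a second quantile normalization, to 0.014.

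The remaining members lay outside these domains and overlapped between the groups. Impact, an inhibitor of the stress kinase GCN2, had 8.03, 7.71 and 7.70 in the CCR2-positive and 8.26, 7.64 and 8.19 in the CCR2-negative pools (-0.22 ± 0.18). Gatm, an enzyme of creatine synthesis, had 8.01, 8.36 and 7.58 in the CCR2-positive and 7.55, 7.88 and 7.88 in the CCR2-negative pools (0.21 ± 0.19), and without CCR2-positive replicate 2 its difference was 0.02. Nap1l5, a relative of the nucleosome assembly proteins, had 0.19 ± 0.11, Inpp5f, a phosphoinositide phosphatase, had -0.08 ± 0.14, and Gnas, which encodes the stimulatory G protein subunit, had 0.03 ± 0.10. Cyclic loess turned the sign of Gnas, to -0.023.

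Larger differences were found among imprinted genes outside the list. Of 40 such genes with a probe set, 23 lay higher and 17 lower, with a median of 0.02 (0.06 without CCR2-negative replicate 1), and 0 passed the adjusted threshold. At an adjusted p of 0.2 there were 2 of 40, both lower, beside 1.1% of all genes. At an unadjusted p under 0.05 there were 7 (17.5%, beside 12.2% of all genes), 1 higher and 6 lower. Tnfrsf26, a TNF receptor family gene next to the Kcnq1ot1 domain, had log2 values of 6.75, 6.34 and 6.37 in the CCR2-positive pools, against 7.72, 7.11 and 7.10 in the CCR2-negative pools. Its groups were well apart, with a difference of -0.83 ± 0.19, 1.77-fold lower (limma adjusted p = 0.187). Ppp1r9a, which encodes neurabin and lies in the Peg10 domain, had 6.68, 6.45 and 6.41 in the CCR2-positive pools, against between 6.99 and 7.16 in the CCR2-negative pools (-0.54 ± 0.12, adjusted p = 0.183). Both Tnfrsf26 and Ppp1r9a are known for imprinting in the placenta, and neither was tested for it here. Pon3, a lactonase gene of the Peg10 domain, had -0.66 ± 0.22, and Atp10a, a phospholipid flippase gene, had -0.39 ± 0.13. The groups overlapped for Pon3, since CCR2-positive replicate 1 (6.97) lay above CCR2-negative replicate 3 (6.88). The other genes of this list in that part of chromosome 6 were Tfpi2 (0.38 ± 0.16), Pon2 (0.23 ± 0.18), Calcr (0.13 ± 0.10) and Casd1 (-0.06 ± 0.10).

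Factors that set, keep or erase methylation imprints were examined beside the imprinted genes. Of 25 measured, 10 lay higher and 15 lower, with a median of -0.03 and 0 past the adjusted threshold. The 3 with an unadjusted p under 0.05 (12%, beside 12.2% of all genes) were all lower. Dnmt3b, a de novo DNA methyltransferase, had log2 values of 7.60, 7.59 and 7.57 in the CCR2-positive pools, against 7.99, 8.09 and 7.88 in the CCR2-negative pools, a difference of -0.40 ± 0.10 (limma adjusted p = 0.214). Tet2 and Tet1, which oxidise methylated cytosine, had -0.47 ± 0.13 and -0.35 ± 0.11, and Eed, a Polycomb subunit, had -0.29 ± 0.13. The groups did not overlap for 6 factors (24%), all lower, while 7.88% of all genes separated downward. These factors are bright, with 16 of 25 above the 75th percentile of level, and among all genes above the median level 12.4% separated downward, with a median difference of -0.03. Without CCR2-positive replicate 2 the median of the list was -0.16, and without CCR2-negative replicate 3 it was -0.003.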

How the data were processed

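A single table of 41345 probe sets by 6 arrays was deposited, on the log2 scale. RMA made these values, per the submitters' processing notes, with the version not given in the sources used here. Detection calls and scanner intensities were not used here. That the deposited values are log2 was checked from their range (2.39 to 13.3, array medians 5.48 to 5.58). The number of arrays, 3 pools a group, limits the precision. The limma p-values set each group difference against the spread between these pools, moderated over all genes. They do not concern the spread between single mice.

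Genes were named through the array's annotation table, which gave 1 gene for 23521 probe sets, several for 1814 and none for 16010. All 36 members matched RefSeq (GRCm38.p6) by gene number. Groups were compared with limma 3.58.1 (R 4.3.3), using lmFit and eBayes without covariates, on 22180 genes, adjusted by Benjamini-Hochberg. The fit was tested on simulated data with planted differences larger than that of any member. Its recovery of differences as small as those of the members was not tested. All measured members are named. Of the other imprinted, IGF and imprint factor lists the 4 genes with the smallest p are named, and Cdkn1c. Tfpi2, Pon2, Calcr, Casd1, Dnmt1, Uhrf1, Zfp57, Trim28 and Zfp445 were added after their values were seen. Of the miRNA genes the 4 with the smallest p, Mir483 and Mir335 are named, and Mir3070a was added after its values were seen. Members, lists and classes were chosen with earlier results of these data known, so no list was tested as a set. Level strata and bins were chosen after seeing the data.

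Alternatives were 2 filters on dim genes, 3 scalings, the replicate number as a block, a robust trended variance and weighted arrays. Others were averaging all probe sets of a gene, leaving out each pool, and an adjusted p of 0.2. The members marked as imprinted by tissue or transcript were also left out.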

Additional observations from a re-analysis of the deposited data

How the results depend on the processing

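With limma, 0 members passed the adjusted threshold in any of 15 other fits. All 36 members were in 13 of them, 30 with genes under the 25th percentile of level dropped and 17 with those under the median dropped. In these fits the lowest adjusted p of a member was 0.217, for Slc22a18. Leaving out 1 pool at a time gave 0 to 2 genes past the threshold over all genes, and an adjusted p of 0.2 gave 318, with 0 members. The replicate number as a block (replicate block) also gave 0 genes and 0 members. It is no pairing given by the labels, and deviations of same-numbered pools correlated at 0.0348, 0.0892 and 0.0447. Dropping genes under the median level left 4 of 9 maternally and 4 of 8 paternally expressed members higher. The paternal median was then -0.0198, and the other lists had medians of -0.0612 (other imprinted genes), -0.145 (imprint factors), -0.164 (IGF) and 0.203 (miRNA genes). Dropping those under the 25th percentile gave 0.166 for the miRNA genes. Fewer, brighter genes remain in these settings by construction. Without the members marked as imprinted by tissue or transcript the medians were 0.0809 (maternal) and 0.110 (paternal). Without 1 pool the paternal median ranged between 0.0519 and 0.140, the maternal between -0.0132 and 0.0553, that of imprint factors between -0.158 and -0.00294, and that of IGF genes between -0.0418 and 0.0409.

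In these fits 14 members turned sign at least once. A second quantile normalization gave 0.0137 for Peg12 and 0.0529 for Tssc4, and median centring gave -0.0117 for Kcnq1ot1 and -0.00257 for Nap1l4. Cyclic loess gave -0.00928 for Dlk1, -0.0231 for Gnas and 0.0260 for Tssc4. Array weights gave -0.0840 for Kcnq1ot1 and -0.00108 for Gnas, and the mean of all probe sets gave -0.0485 for Plagl1 and -0.222 for Nnat. Leaving out 1 pool turned 12 members, whose values ranged between -0.00141 and 0.245 for Igf2, -0.0459 and 0.127 for Dlk1, -0.0321 and 0.181 for Meg3, -0.101 and 0.104 for Kcnq1ot1, -0.238 and 0.0775 for Mkrn3, and -0.0985 and 0.00492 for Ube3a. The others ranged between -0.00438 and 0.0541 for Gnas, -0.0873 and 0.251 for Nnat, -0.0897 and 0.0686 for Asb4, -0.206 and 0.0107 for Inpp5f, -0.0664 and 0.0516 for Tssc4, and -0.0591 and 0.125 for Nap1l4. Mir335 ranged between -0.233 and 0.156. The sign of the other 22 turned in no fit that held them. Except where the construction of a setting shows it, the cause was not tested.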
